A study of Drosophila melanogaster with 9 samples.

Results

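The genes described here encode proteins of the Drosophila melanogaster seminal fluid, most of them made in the male accessory gland. They were chosen by name, as the symbols that start with Acp or Sfp and a digit, plus SP, Dup99B, Ebp and EbpII. The rule itself uses no measured value, but it was set with earlier results of these data known. Acp1 and Acp65Aa, which are cuticle genes of similar name, were left out. The rule found 49 genes among the 16837 listed, and all 49 are annotated as protein-coding.

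The series measured RNA of heads from virgin females aged 10 days, in 9 libraries of 3 genotypes. Wild type, labelled Chd1[WT/WT], has 3 libraries. Chd1-deficient, labelled Chd1[-/-], has 3 libraries from flies with a deletion in Chd1, the gene of a chromodomain helicase that remodels nucleosomes. The group elav>Chd1, with 3 libraries, is labelled elav-Gal4>UAS-Chd1 and also Chd1-rescued. In it elav-Gal4, a driver used to express transgenes in neurons, drives a Chd1 transgene. The labels do not state outright whether elav>Chd1 flies carry the deletion, and the series' design text has rescued flies and elav>Chd1 as separate entries and no wild type. Nor do they say whether replicates are separate collections of flies, and each p-value measures only the spread between libraries, possibly a technical one. Chd1 itself stood at 104, 108 and 92.7 TPM in wild type, 63.7, 63.1 and 63.7 TPM in elav>Chd1 and 18.2, 19.9 and 20.2 TPM in Chd1-deficient libraries. Values below are always given in the order of replicates 1, 2 and 3, and TPM is a transcript level corrected for gene length and scaled to a fixed library total. The sequencing depth is unknown from such values.

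The paired accessory glands of the male, the ejaculatory duct and the ejaculatory bulb secrete peptides, glycoproteins, proteases and protease inhibitors that pass to the female with the sperm. There they raise egg laying, lower the readiness to mate again, help sperm into storage and form a mating plug. Females do not have these glands, and heads of virgin females are not known as a source of most of these transcripts.

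The labelled tissue and sex were checked against marker genes. All 13 ovary and eggshell markers were above 0 in every group and summed to 16724 to 18976 TPM in wild-type, 24403 to 25605 TPM in elav>Chd1 and 20426 to 21389.6 TPM in Chd1-deficient libraries. The 5 neuron markers summed to 27 to 29.9, 53.9 to 56.5 and 141 to 149 TPM in the same order. The 5 photoreceptor markers summed to 1103 to 1143, 1842 to 1863 and 4371 to 4497 TPM. Markers of the labelled head were thus present, and so were those of the eggshell, which a head does not make. The 21 testis and sperm genes summed to 35.5 to 41.5 TPM in wild-type, 11.5 to 14.3 TPM in elav>Chd1 and 431 to 464 TPM in Chd1-deficient libraries, and 1 of them, aly, was listed at 0 in all elav>Chd1 libraries. Of 12 genes of the Y chromosome, 6 were listed at 0 in all wild-type libraries, 9 in all elav>Chd1 libraries and 1 in all Chd1-deficient libraries. Their sum was 0.0361 to 0.127, 0 to 0.0279 and 0.712 to 1.2 TPM in the same order. The roX RNAs, which coat the male X chromosome in dosage compensation, summed to 1.95 to 2.65, 2.04 to 2.34 and 30.1 to 34.5 TPM. All 9 samples are labelled female. Sums of testis, sperm and Y chromosome genes thus moved with the groups, as did the seminal fluid genes. The roX sums were higher in Chd1-deficient libraries but overlapped between wild type and elav>Chd1. The part of male tissue in the results below was not tested.

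Seminal fluid genes were highest in the Chd1-deficient libraries, lower in wild type and lowest in elav>Chd1. The summed level of the 49 genes was 892.3, 861.7 and 931.5 TPM for the Chd1-deficient genotype, 168.6, 163.1 and 167.7 TPM in wild type, and 53.7, 51.3 and 48.0 TPM in elav>Chd1. The groups did not overlap, and the spread within a group was small beside the steps between groups. By group means, 45 of the 49 genes followed the order elav>Chd1, wild type, Chd1-deficient, all but Acp29AB, Acp98AB, Sfp78E and Sfp84E. The share of all genes in this order was not computed, so the count does not show how unusual the order is. Of the 49, 7 were listed at 0 in all elav>Chd1 libraries. A mean of at least 1 TPM was reached by 42 genes in the Chd1-deficient, 27 in the wild-type and 16 in the elav>Chd1 libraries. In RNA of a whole tissue, fewer cells of a type and less RNA per cell cannot be told apart.

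**Figure D1:**
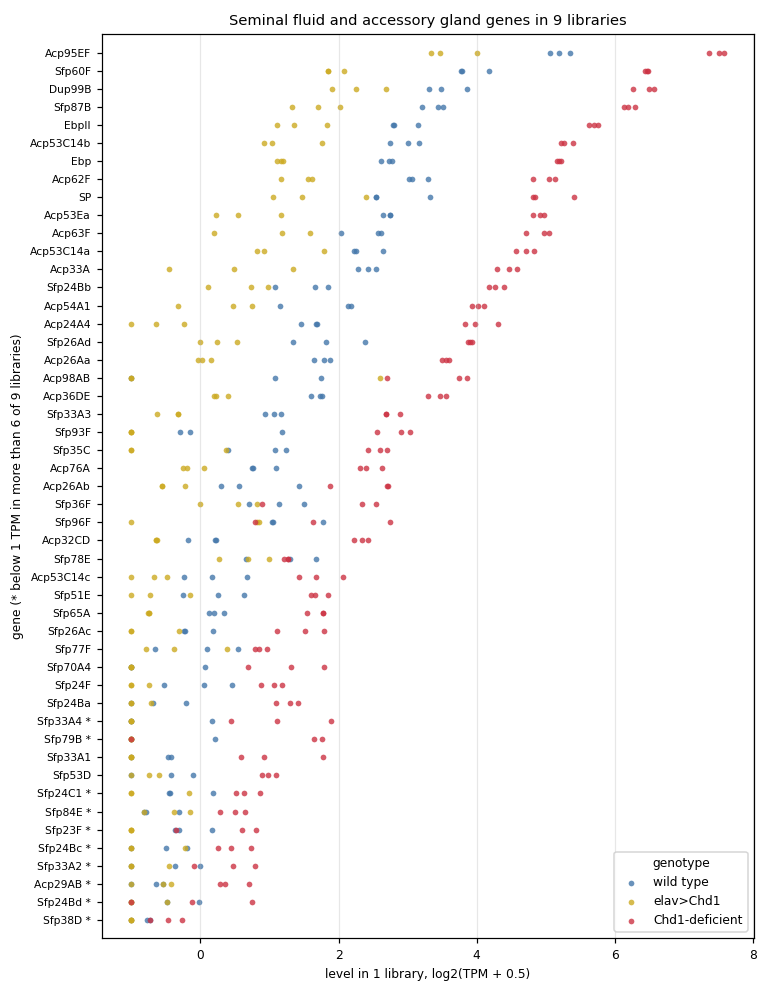
Level of each of the 49 genes in each of the 9 libraries, as log2(TPM + 0.5), with 1 point per library coloured by genotype and genes ordered by their mean level. For 41 genes every Chd1-deficient point lies to the right of every wild-type point, and for 31 genes every elav>Chd1 point lies to the left of every wild-type point.

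Comparing the Chd1-deficient with the wild-type libraries addresses what differs with the Chd1 deletion. For 41 of the 49 genes every Chd1-deficient library lay above every wild-type library, and for none did all lie below. The same held in the upward direction for 40.2% of all 16837 genes. The fit (limma on log2(TPM + 0.5), all 9 libraries together, threshold adjusted p 0.05 by Benjamini-Hochberg over all genes tested) took in a gene where 3 or more libraries reached 1 TPM. Of the 49, 39 passed this filter and 10 did not. Of the 39, 9 passed through the Chd1-deficient libraries alone, namely Acp32CD, Sfp24Ba, Sfp24F, Sfp26Ac, Sfp33A1, Sfp53D, Sfp65A, Sfp70A4 and Sfp77F. The counts of passing genes therefore describe the 39 and do not stand as support for a direction. In the fit 36 were called higher, none lower and 3 were not called, against 42.9% of all 11094 tested genes called higher and 46% lower. Their median log2 fold change was 1.90, beside -0.05 for all tested genes. Without the filter all 49 could be tested, and 40 were called higher and none lower, against 39.4% of all genes called higher and 30.3% lower. The median of the 49 was then 1.73, beside 0.09 for all genes.

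Comparing the Chd1-deficient with the elav>Chd1 libraries sets the deletion against Chd1 driven by elav-Gal4. For 46 of the 49 genes every Chd1-deficient library lay above every elav>Chd1 library, against 34.8% of all genes. All 39 genes that passed the filter were called higher, against 34.7% of tested genes called higher and 33.7% lower. The median of the log2 fold changes was 3.23, beside -0.02 for all. Without the filter 44 of 49 were called higher and none lower, against 31.5% of all genes called higher and 21.5% lower. Against wild type the elav>Chd1 libraries were lower. Every elav>Chd1 library lay below every wild-type library for 31 of the 49 genes, against 32.8% of all genes. Of the 39 tested, 30 were called lower, none higher and 9 were not called, against 47.3% of tested genes called lower and 30.6% higher. The median was -1.21, beside -0.15 for all tested genes. Without it, 29 of 49 were called lower and none higher, against 30.4% of all genes called lower and 22.3% higher. The 3 comparisons share libraries pairwise, so their values are set side by side and are not independent of one another. Among the tested genes Sfp33A1, Sfp70A4 and Sfp93F were listed at 0 in all elav>Chd1 libraries. Without these 3 the medians were 3.31 for Chd1-deficient against elav>Chd1 and -1.24 for elav>Chd1 against wild type.

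**Figure D2:**
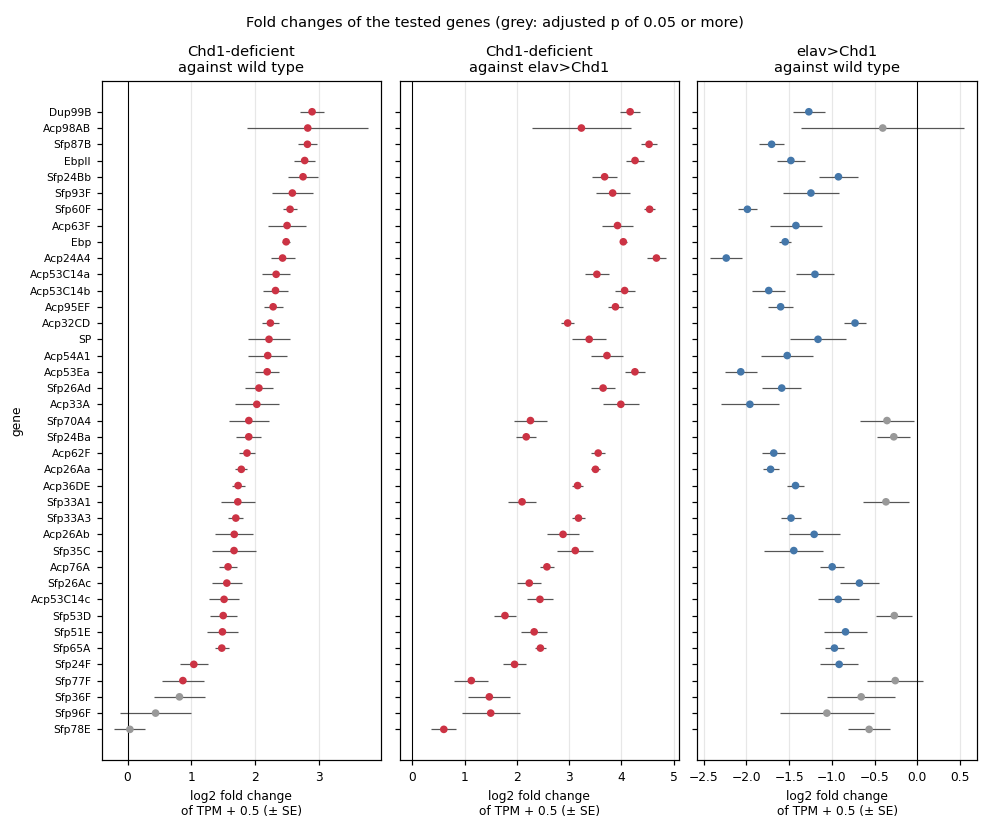
Log2 fold change of TPM + 0.5 with its standard error for the 39 tested genes in the 3 comparisons, ordered by the first of them; red points were called higher, blue points lower and grey points not called. The fold changes run from 0.04 to 2.90 in the first panel, from 0.60 to 4.67 in the second and from -2.24 to -0.26 in the third.

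The peptides that change female behaviour come first. SP, the sex peptide, binds a receptor in the female, raises egg laying and lowers receptivity, and stays bound to stored sperm. SP stood at 5.33, 9.49 and 5.33 TPM in wild type, 4.75, 2.27 and 1.58 TPM in elav>Chd1 and 28.2, 27.7 and 41.8 TPM in Chd1-deficient libraries. The Chd1-deficient values lay above all others, and all elav>Chd1 values lay below all wild-type values. SP was higher in Chd1-deficient than in wild type by 2.22 (limma adjusted p = 7.2e-05, SE 0.33) on the log2 scale, and in elav>Chd1 it fell by 1.16 (limma adjusted p = 0.0077, SE 0.33). Dup99B, a peptide of the ejaculatory duct whose end resembles that of SP and which binds the same receptor, stood at 10.7, 14 and 9.45 TPM in wild type, 5.96, 3.26 and 4.25 TPM in elav>Chd1 and 94.8, 76.7 and 89.8 TPM in Chd1-deficient libraries. Its groups were separate too. Dup99B rose against wild type by 2.9 (limma adjusted p = 1.6e-07, SE 0.19), and in elav>Chd1 it fell by 1.27 (limma adjusted p = 0.00014, SE 0.19). Acp26Aa, the prohormone-like ovulin that stimulates release of eggs from the ovary after mating, stood at 3.16, 2.96 and 2.62 TPM in wild type, 0.479, 0.611 and 0.52 TPM in elav>Chd1 and 11.7, 10.8 and 11.3 TPM in Chd1-deficient libraries. Acp26Ab is its neighbour, 20 bases away on the same strand. Acp26Ab stood at 0.97, 2.18 and 0.726 TPM in wild type, 0.18, 0.354 and 0.177 TPM in elav>Chd1 and 6.03, 6.08 and 3.16 TPM in Chd1-deficient libraries. Ovulin was the higher of the pair in every library. Acp26Aa rose by 1.79 (limma adjusted p = 3.7e-08, SE 0.09) and Acp26Ab by 1.67 (limma adjusted p = 0.00032, SE 0.30) against wild type, and both fell in elav>Chd1, by 1.72 (limma adjusted p = 1.7e-07, SE 0.09) and by 1.21 (limma adjusted p = 0.0038, SE 0.30).

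The next genes act on sperm. Acp36DE, a large glycoprotein that sperm need for efficient storage, stood at 2.9, 2.54 and 2.82 TPM in wild type, 0.673, 0.644 and 0.822 TPM in elav>Chd1 and 9.27, 10.6 and 11.2 TPM in Chd1-deficient libraries. Acp36DE rose by 1.73 (limma adjusted p = 7.9e-08, SE 0.10) against wild type and fell by 1.43 (limma adjusted p = 1.3e-06, SE 0.10) in elav>Chd1, with no overlap between any groups. The lectin gene Acp29AB, also tied to sperm storage, was far lower and failed the filter. Acp29AB stood at 0.139, 0 and 0.186 TPM in wild type, 0, 0.184 and 0.245 TPM in elav>Chd1 and 1.12, 0.721 and 0.782 TPM in Chd1-deficient libraries. Its Chd1-deficient libraries lay above the others, while wild type and elav>Chd1 overlapped. Acp53Ea and the 3 genes named Acp53C14 form a cluster of small secreted proteins on chromosome arm 2R. Acp53Ea stood at 5.73, 6.21 and 6.23 TPM in wild type, 0.956, 0.671 and 1.75 TPM in elav>Chd1 and 27.6, 29.8 and 30.9 TPM in Chd1-deficient libraries. Acp53C14b stood at 6.23, 8.43 and 7.56 TPM in wild type, 1.55, 1.38 and 2.88 TPM in elav>Chd1 and 36.7, 38 and 41.7 TPM in Chd1-deficient libraries. Acp53C14a stood at 5.73, 4.27 and 4.17 TPM in wild type, 2.95, 1.26 and 1.39 TPM in elav>Chd1 and 23.3, 27.9 and 25.6 TPM in Chd1-deficient libraries. The lowest of the cluster in every library was Acp53C14c, at 0.351, 1.09 and 0.626 TPM in wild type, 0.211, 0 and 0.125 TPM in elav>Chd1 and 2.68, 3.67 and 2.18 TPM in Chd1-deficient libraries. All 4 separated the 3 groups in every library. From wild type to elav>Chd1 Acp53Ea fell by 2.07 (limma adjusted p = 6.5e-06, SE 0.19) and Acp53C14c by 0.93 (limma adjusted p = 0.0051, SE 0.24) on the log2 scale, where the added 0.5 TPM makes the fall of a low gene smaller. The plain ratio of mean TPM, elav>Chd1 over wild type, was 0.186 for Acp53Ea and 0.163 for Acp53C14c. Against wild type the 4 rose by 1.51 to 2.33 on the log2 scale. The sources used here do not say how reads shared between related genes were assigned.

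Inhibitors of proteases are a further class of seminal proteins. Acp62F, a trypsin inhibitor, stood at 7.58, 7.87 and 9.36 TPM in wild type, 1.75, 2.43 and 2.57 TPM in elav>Chd1 and 27.7, 32.6 and 34.7 TPM in Chd1-deficient libraries. Acp76A, a serpin, stood at 1.64, 1.18 and 1.19 TPM in wild type, 0.339, 0.374 and 0.541 TPM in elav>Chd1 and 4.44, 5.7 and 4.76 TPM in Chd1-deficient libraries. Acp24A4, a predicted inhibitor of the Kunitz type, stood at 2.25, 2.73 and 2.7 TPM in wild type, 0.35, 0.14 and 0 TPM in elav>Chd1 and 13.8, 15.3 and 19.3 TPM in Chd1-deficient libraries. The groups were separate for all 3. In elav>Chd1 Acp24A4 fell by 2.24 (limma adjusted p = 3.9e-06, SE 0.19), beside falls of 1.68 (limma adjusted p = 2.6e-06, SE 0.13) for Acp62F and 1.0 (limma adjusted p = 0.0001, SE 0.14) for Acp76A. Against wild type they rose in Chd1-deficient by 2.43 (limma adjusted p = 5.1e-07, SE 0.19), 1.87 (limma adjusted p = 2.8e-07, SE 0.13) and 1.58 (limma adjusted p = 1.4e-06, SE 0.14) in this order.

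Proteins of the ejaculatory bulb go into the posterior part of the mating plug. Ebp, the main one, stood at 6.32, 5.6 and 6.14 TPM in wild type, 1.66, 1.75 and 1.79 TPM in elav>Chd1 and 35.4, 36.7 and 36.1 TPM in Chd1-deficient libraries. EbpII stood at 6.41, 6.48 and 8.4 TPM in wild type, 2.06, 3.08 and 1.66 TPM in elav>Chd1 and 48.8, 51.5 and 53.8 TPM in Chd1-deficient libraries. Within each group the Ebp libraries differed little, with 36.1 ± 0.623 TPM (SD, n = 3) in Chd1-deficient, 6.02 ± 0.376 TPM in wild type and 1.73 ± 0.068 TPM in elav>Chd1. Ebp rose by 2.49 (limma adjusted p = 3.5e-10, SE 0.07) against wild type and fell by 1.55 (limma adjusted p = 3.5e-08, SE 0.07) in elav>Chd1. EbpII rose by 2.78 (limma adjusted p = 8.5e-08, SE 0.17) and fell by 1.48 (limma adjusted p = 2.3e-05, SE 0.17). Sfp60F lies next to both on chromosome arm 2R and was higher than either in every library, at 17.7, 13.2 and 13.3 TPM in wild type, 3.72, 3.1 and 3.11 TPM in elav>Chd1 and 89, 86.2 and 88.2 TPM in Chd1-deficient libraries. Sfp60F rose by 2.55 (limma adjusted p = 8e-09, SE 0.11) and fell by 1.99 (limma adjusted p = 1.6e-07, SE 0.11). By the Ensembl release 115 gene models for BDGP6.54, which has dm6 coordinates, Sfp60F spans 25172245 to 25172695, EbpII 25173568 to 25174230 and Ebp 25175126 to 25176715, all on the minus strand.

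The highest gene of the set in all 9 libraries was Acp95EF, with 36, 33.1 and 40.4 TPM in wild type, 15.6, 10.5 and 9.66 TPM in elav>Chd1 and 182, 165 and 191 TPM in Chd1-deficient libraries. Its 243 annotated exon bases all overlap exons of Spase22-23, a signal peptidase subunit gene on the opposite strand, and strand use in counting is not stated. Spase22-23 itself stood at 190.5, 199 and 208 TPM in wild type, 208, 191 and 192 TPM in elav>Chd1 and 213, 201 and 209 TPM in Chd1-deficient libraries. The groups of Spase22-23 overlapped, while those of Acp95EF were separate. Acp95EF rose by 2.28 (limma adjusted p = 1.5e-07, SE 0.15) against wild type and fell by 1.6 (limma adjusted p = 7.1e-06, SE 0.15) in elav>Chd1. Sfp87B, the next highest of the genes not yet described, stood at 8.75, 10.9 and 10.3 TPM in wild type, 2.0, 2.75 and 3.55 TPM in elav>Chd1 and 69.8, 77.9 and 72.8 TPM in Chd1-deficient libraries. Sfp87B rose by 2.82 (limma adjusted p = 3.9e-08, SE 0.15) and fell by 1.7 (limma adjusted p = 5.1e-06, SE 0.15).

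Acp63F, Acp33A, Acp54A1 and Acp32CD followed the same order of groups, and Acp98AB did so in part. Acp63F stood at 5.43, 5.65 and 3.62 TPM in wild type, 1.77, 0.645 and 2.52 TPM in elav>Chd1 and 32.5, 25.8 and 31 TPM in Chd1-deficient libraries. Acp33A stood at 4.89, 5.31 and 4.37 TPM in wild type, 0.229, 0.905 and 2.03 TPM in elav>Chd1 and 21.6, 19.1 and 23.4 TPM in Chd1-deficient libraries. Acp54A1 stood at 3.88, 1.71 and 4.05 TPM in wild type, 0.298, 1.18 and 0.886 TPM in elav>Chd1 and 16.7, 14.8 and 15.7 TPM in Chd1-deficient libraries. Each of these 3 was separate between all groups. Acp32CD was lower, at 0.386, 0.673 and 0.661 TPM in wild type, 0.144, 0.141 and 0.141 TPM in elav>Chd1 and 4.18, 4.89 and 4.55 TPM in Chd1-deficient libraries. The 4 genes rose against wild type by 2.03 to 2.5 and fell in elav>Chd1 by 0.73 to 1.96 on the log2 scale. Each of these differences was called by limma, beside 42.9% of all tested genes called higher and 47.3% called lower in these 2 comparisons in turn. Acp32CD reached 1 TPM in no group but the Chd1-deficient one, so its call as higher does not count as support for a direction. Acp98AB, whose annotated transcript has only 175 bases, was erratic between libraries, at 1.61, 0 and 2.85 TPM in wild type, 0, 5.59 and 0 TPM in elav>Chd1 and 12.9, 6.03 and 14 TPM in Chd1-deficient libraries. Acp98AB was called higher in Chd1-deficient than in wild type, by 2.83 (limma adjusted p = 0.016, SE 0.95), but without wild type replicate 2 the adjusted p was 0.068, and its value for elav>Chd1 against wild type was -0.41 (limma adjusted p = 0.71, SE 0.95). That value turned to 0.16 without wild type replicate 3 and to 0.20 without elav>Chd1 replicate 1 or 3.

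Among the genes named Sfp, 8 at moderate or low levels repeated the pattern, Sfp51E only in part. Sfp24Bb stood at 2.65, 1.61 and 3.1 TPM in wild type, 1.47, 0.578 and 1.16 TPM in elav>Chd1 and 20.5, 17.6 and 18.8 TPM in Chd1-deficient libraries. Sfp26Ad stood at 4.7, 2.02 and 3.01 TPM in wild type, 0.50, 0.676 and 0.946 TPM in elav>Chd1 and 14.5, 14.1 and 14.8 TPM in Chd1-deficient libraries. Sfp33A3 stood at 1.42, 1.74 and 1.6 TPM in wild type, 0.302, 0.299 and 0.148 TPM in elav>Chd1 and 5.96, 6.9 and 5.93 TPM in Chd1-deficient libraries. All 3 were separate between the groups. Sfp35C stood at 1.86, 1.61 and 0.814 TPM in wild type, 0, 0 and 0.798 TPM in elav>Chd1 and 6.01, 4.88 and 5.54 TPM in Chd1-deficient libraries, with 2 of 3 elav>Chd1 libraries listed at 0. Sfp65A stood at 0.762, 0.646 and 0.59 TPM in wild type, 0.0948, 0.094 and 0.0935 TPM in elav>Chd1 and 2.42, 2.91 and 2.93 TPM in Chd1-deficient libraries. Sfp51E stood at 0.691, 0.342 and 1.05 TPM in wild type, 0.10, 0.399 and 0 TPM in elav>Chd1 and 2.66, 3.09 and 2.53 TPM in Chd1-deficient libraries. For Sfp51E the elav>Chd1 and wild-type libraries overlapped, although limma called the fall of 0.84 (limma adjusted p = 0.0099, SE 0.25). Sfp24F stood at 0.877, 0.54 and 0.197 TPM in wild type, 0, 0.0954 and 0 TPM in elav>Chd1 and 1.76, 1.34 and 1.59 TPM in Chd1-deficient libraries. Sfp26Ac stood at 0.36, 0.349 and 0.633 TPM in wild type, 0.308, 0 and 0 TPM in elav>Chd1 and 2.95, 1.65 and 2.34 TPM in Chd1-deficient libraries. The call of Sfp26Ac as lower in elav>Chd1, by 0.68 (limma adjusted p = 0.02, SE 0.23), was lost without wild type replicate 3 (limma adjusted p = 0.074) and without elav>Chd1 replicate 2 or 3 (limma adjusted p = 0.071 both times). These 8 genes rose in Chd1-deficient against wild type by 1.04 to 2.75 on the log2 scale. All 8 were called higher by limma, beside 42.9% of all tested genes. Sfp65A, Sfp24F and Sfp26Ac reached 1 TPM in no group but the Chd1-deficient one. Being high there was what let them be tested, so their calls as higher do not count as support for a direction.

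Zeros in wild type or elav>Chd1 marked a further group. Sfp93F stood at 1.77, 0.404 and 0.31 TPM in wild type and 7.69, 5.4 and 6.95 TPM in Chd1-deficient, and was listed at 0 in all elav>Chd1 libraries. Sfp70A4 stood at 0, 0.548 and 0 and 2.96, 1.97 and 1.1 TPM in these 2 groups and was also listed at 0 in all elav>Chd1 libraries. Sfp33A1 stood at 0.247, 0 and 0.22 and 1.4, 2.93 and 1.01 TPM, again with every elav>Chd1 library at 0. Sfp24Ba and Sfp53D were nearly as low outside the Chd1-deficient libraries. Sfp24Ba stood at 0.123, 0.364 and 0 TPM in wild type, 0, 0 and 0.106 TPM in elav>Chd1 and 1.63, 2.17 and 1.96 TPM in Chd1-deficient libraries. Sfp53D stood at 0.243, 0.426 and 0 TPM in wild type, 0.0941, 0.16 and 0 TPM in elav>Chd1 and 1.63, 1.48 and 1.35 TPM in Chd1-deficient libraries. All 5 rose against wild type, by 1.5 to 2.59 on the log2 scale by limma. Sfp70A4, Sfp33A1, Sfp24Ba and Sfp53D reached 1 TPM in no group but the Chd1-deficient one, so their calls as higher do not count as support for a direction. Only Sfp93F of the 5 was called between elav>Chd1 and wild type, beside 47.3% of all tested genes called lower there and 30.6% higher. Without wild type replicate 3, Sfp24Ba and Sfp53D were called there too, at limma adjusted p = 0.042 and 0.017 in this order.

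4 genes departed from the pattern in part, by overlap between libraries of different groups. Of these only Sfp78E departed from the order of group means. Sfp78E stood at 2.68, 1.96 and 1.09 TPM in wild type, 0.706, 1.48 and 1.11 TPM in elav>Chd1 and 1.91, 1.81 and 1.92 TPM in Chd1-deficient libraries, so that the Chd1-deficient values lay within the wild-type range, and its log2 fold change between them was 0.04 (limma adjusted p = 0.89, SE 0.24). It turned to -0.24 without wild type replicate 3. Without that library Sfp78E was called lower in elav>Chd1 than in wild type (-0.84, limma adjusted p = 0.0033), and also without elav>Chd1 replicate 2 (-0.73, limma adjusted p = 0.025), where with all libraries it was not. Sfp78E is 1 of 3 genes of the set that share exon bases with another gene, here 158 bases with CG11248 and a noncoding RNA gene on the opposite strand. CG11248 stood at 31.9, 29.7 and 26.2 TPM in wild type, 20.1, 21.3 and 22.2 TPM in elav>Chd1 and 18.2, 20.0 and 19.2 TPM in Chd1-deficient libraries, and its part in the Sfp78E values was not tested. Sfp96F stood at 1.54, 1.56 and 2.91 TPM in wild type, 1.31, 1.26 and 0 TPM in elav>Chd1 and 6.2, 2.59 and 1.24 TPM in Chd1-deficient libraries, with a log2 fold change of 0.44 (limma adjusted p = 0.46, SE 0.55) against wild type that turned to -0.07 without Chd1-deficient replicate 1. Sfp36F stood at 1.12, 2.33 and 1.7 TPM in wild type, 0.493, 1.27 and 0.963 TPM in elav>Chd1 and 4.56, 5.35 and 1.36 TPM in Chd1-deficient libraries. Its Chd1-deficient replicate 3 lay within the wild-type range, and without that library Sfp36F was called higher (1.33, limma adjusted p = 0.0012) where with all libraries it was not, at 0.81 (limma adjusted p = 0.076, SE 0.40). Sfp77F stood at 0.962, 0.132 and 0.573 TPM in wild type, 0.266, 0.805 and 0.0789 TPM in elav>Chd1 and 1.23, 1.44 and 1.3 TPM in Chd1-deficient libraries. Sfp77F was called higher in Chd1-deficient, by 0.87 (limma adjusted p = 0.027, SE 0.33). It reached 1 TPM in no other group, so this call does not count as support for a direction. Sfp77F lost the call without wild type replicate 2 (limma adjusted p = 0.11), without a filter (0.079) and with a pseudocount of 0.1 (0.060). Against elav>Chd1 all 4 were called higher in Chd1-deficient, beside 34.7% of all tested genes. Sfp78E was called by 0.60 (limma adjusted p = 0.047, SE 0.24) and Sfp96F by 1.5 (limma adjusted p = 0.033, SE 0.55). Both of these calls were lost without elav>Chd1 replicate 3, at limma adjusted p = 0.082 and 0.12, and without Chd1-deficient replicate 1, at 0.11 and 0.14. They were also lost without Chd1-deficient replicate 2, at 0.086 and 0.064. Sfp78E lost it as well without wild type replicate 2 (limma adjusted p = 0.058), Chd1-deficient replicate 3 (0.10) or elav>Chd1 replicate 1 (0.17).

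The 10 genes below the filter were all above 0 in at least 2 Chd1-deficient libraries. Besides Acp29AB these are Sfp23F, Sfp24Bc, Sfp24Bd, Sfp24C1, Sfp33A2, Sfp33A4, Sfp38D, Sfp79B and Sfp84E. Their values ran from 0 to 3.2 TPM in Chd1-deficient, from 0 to 0.657 TPM in wild type and from 0 to 0.40 TPM in elav>Chd1. Sfp23F, Sfp33A4, Sfp38D and Sfp79B were listed at 0 in all elav>Chd1 libraries. In 5 of the 10 every Chd1-deficient library lay above every wild-type library, namely Acp29AB, Sfp24Bc, Sfp24C1, Sfp33A4 and Sfp84E, a share near the 40.2% of all genes. For each of these 5 the exact two-sided permutation test gave p = 0.1, the smallest that 3 libraries against 3 allow, so that no single gene could pass 0.05. Sfp33A4 had the largest difference of the 10, 1.9 against 0.207 TPM.

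The genes kept much the same order of level in each genotype. Among the 32 genes with a mean of at least 1 TPM over all libraries, Spearman's rho between the group means was 0.921 for wild type and Chd1-deficient, 0.886 for wild type and elav>Chd1, and 0.809 for elav>Chd1 and Chd1-deficient. These describe 32 genes of the same libraries, which are not independent replicates. The 4 genes with the highest means, Acp95EF, Sfp60F, Dup99B and Sfp87B, together made up 43.4%, 43.6% and 43.8% of the summed level in wild type, 50.7%, 38.2% and 42.8% in elav>Chd1, and 48.8%, 47.1% and 47.5% in Chd1-deficient libraries. On the linear scale the ratio of mean TPM, Chd1-deficient over wild type, had a median of 4.86 over these 32 genes, with quartiles of 3.92 and 6.13. A rise of this size was not particular to them, since the median was 4.86 over the 5 neuron and 3.99 over the 5 photoreceptor markers. For elav>Chd1 over wild type the ratio had a median of 0.262 over 31 of the 32 genes, leaving out Sfp93F, with quartiles of 0.202 and 0.365. Over the neuron and photoreceptor markers that median was 1.85 and 1.63.

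**Figure D3:**
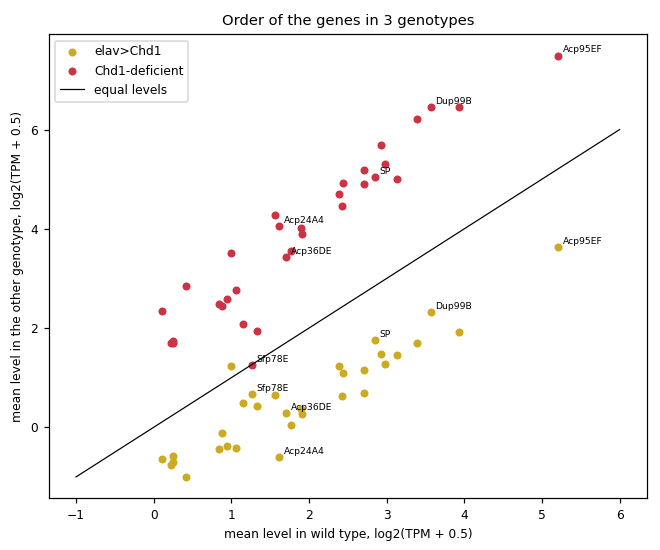
Mean level of the 32 genes with at least 1 TPM on average, as log2(TPM + 0.5), in elav>Chd1 and Chd1-deficient libraries (vertical axis) against wild type (horizontal axis); the line marks equal levels. Chd1-deficient points lie above the line except that of Sfp78E, which lies on it, and elav>Chd1 points lie below it except that of Acp98AB.

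Testis and sperm genes took the same order of groups. Over 16 testis and sperm genes with a mean of at least 1 TPM, the ratio of Chd1-deficient to wild type had a median of 11.1, and that of elav>Chd1 to wild type a median of 0.274. The summed level of the 21 testis and sperm genes, divided by that of the 49 seminal fluid genes, was 0.211, 0.233 and 0.248 in wild type, 0.24, 0.225 and 0.297 in elav>Chd1, and 0.52, 0.527 and 0.463 in Chd1-deficient libraries. Wild type and elav>Chd1 overlapped in this ratio, and the Chd1-deficient libraries lay above both. Of the 16 tested testis and sperm genes, 15 were called higher in Chd1-deficient than in wild type and 15 lower in elav>Chd1 than in wild type, with mia the exception both times. Over all tested genes these shares were 42.9% and 47.3%. The genes dj, djl and ProtA reached 1 TPM in Chd1-deficient libraries alone, which is what let them be tested. Their calls as higher do not count as support for a direction. The roX RNAs differed from this order. Neither roX1 nor roX2 was called between elav>Chd1 and wild type, with a median log2 fold change of -0.04, whereas both were higher in Chd1-deficient (median 3.12 against wild type). For roX2, which reached 1 TPM in Chd1-deficient libraries alone, this call does not count as support for a direction. Neuron and photoreceptor markers took another order again, wild type lowest and Chd1-deficient highest. All 5 neuron and 4 of 5 photoreceptor genes were called higher in elav>Chd1 than in wild type, beside 30.6% of all tested genes. Of the 39 tested seminal fluid genes 30 were called lower there, beside 47.3% of all tested genes. Head fat body markers (3 genes) summed to 6917 to 7256 TPM in wild type and 7528 to 7832 TPM in elav>Chd1. In Chd1-deficient libraries they summed to 10688 to 10865 TPM. Among them fit took the order of the seminal fluid genes, with means of 126 TPM in elav>Chd1, 244 in wild type and 1175 in Chd1-deficient. Yp1 and to did not. The order was thus not particular to male tract and testis genes.

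**Figure D4:**
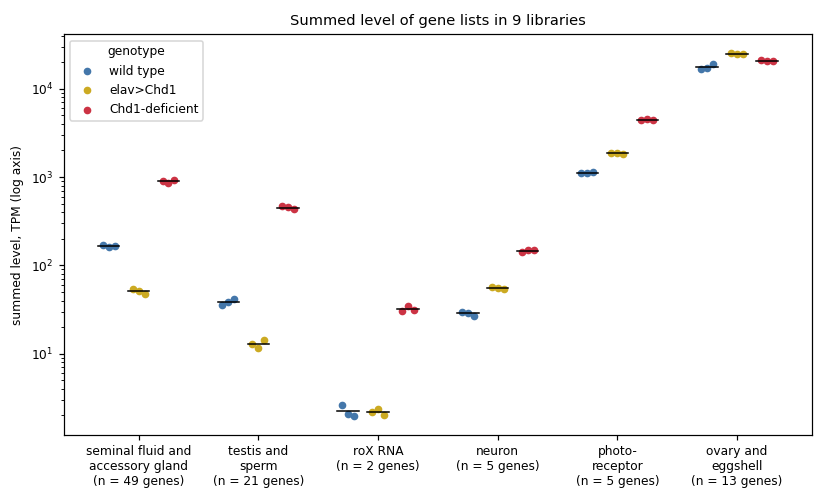
Summed TPM of 6 gene lists in each of the 9 libraries on a log axis, with 1 point per library and a bar at the mean of the 3 libraries of a genotype. The seminal fluid genes sum to 48.0 to 53.7 TPM in elav>Chd1, 163.1 to 168.6 TPM in wild type and 861.7 to 931.5 TPM in Chd1-deficient libraries, an order shared with testis and sperm genes, while neuron and photoreceptor genes are lowest in wild type.

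Other genes of the sex peptide pathway were taken from companion lists. In the male, 8 further genes made in the accessory gland or its tract are needed for sex peptide to bind sperm and last. They were low. Their sum was 13.4 to 14.5 TPM in Chd1-deficient, 2.84 to 3.22 TPM in wild type and 1.77 to 2.78 TPM in elav>Chd1. Of 6 tested, all 6 were called higher in Chd1-deficient than in wild type, beside 42.9% of all tested genes. CG9997, CG17575, aqrs and antr reached 1 TPM in Chd1-deficient libraries alone, which is what let them be tested. Their calls as higher do not count as support for a direction. In elav>Chd1 3 of the 6 were called lower than in wild type and 1 higher, beside 47.3% and 30.6% of all tested genes. CG17575, a cysteine-rich secretory protein, stood at 0.503, 0.695 and 0.368 TPM in wild type, 0.201, 0.326 and 0.132 TPM in elav>Chd1 and 4.0, 3.34 and 3.81 TPM in Chd1-deficient libraries. The lectin gene lectin-46Cb stood at 0.711, 0.684 and 0.766 TPM in wild type, 0.706, 1.16 and 0.987 TPM in elav>Chd1 and 2.63, 2.15 and 1.81 TPM in Chd1-deficient libraries, and its elav>Chd1 and wild-type libraries overlapped. In the female 7 genes are needed for the response to sex peptide or define the neurons that carry it. Of 6 tested, 5 were called higher and none lower in Chd1-deficient than in wild type, and all 6 were called higher in elav>Chd1 than in wild type. Over all tested genes 42.9% and 30.6% were called higher in these comparisons. hdly stood at 6.93, 6.68 and 6.54 TPM in wild type, 14, 16.4 and 15.8 TPM in elav>Chd1 and 21.3, 21.6 and 22.2 TPM in Chd1-deficient libraries. Esp stood at 7.62, 7.05 and 6.59 TPM in wild type, 9.93, 10.9 and 10.8 TPM in elav>Chd1 and 8.16, 7.75 and 8.41 TPM in Chd1-deficient libraries. The sex peptide receptor SPR, named here after its values were seen because it is the receptor of SP and Dup99B, stood at 1.31, 1.35 and 1.07 TPM in wild type, 4.54, 4.84 and 4.49 TPM in elav>Chd1 and 2.58, 3.35 and 3.11 TPM in Chd1-deficient libraries. SPR was thus highest in elav>Chd1, where SP and Dup99B were lowest, but lowest in wild type, where SP and Dup99B lay between. Its order of groups was not the reverse of theirs.

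A further 26 genes of the accessory gland, duct and bulb lie outside the naming rule. Of 24 tested, all 24 were called higher in Chd1-deficient than in wild type, beside 42.9% of all tested genes, with a median of 1.82. CG18284, Obp22a, Obp56f and Gld reached 1 TPM in Chd1-deficient libraries alone, which is what let them be tested. Their calls as higher do not count as support for a direction. In elav>Chd1, 17 were called lower than in wild type and 6 higher, beside 47.3% and 30.6% of all tested genes, with a median of -0.81. Mst57Db, an accessory gland transcript, stood at 29.7, 44.3 and 42.1 TPM in wild type, 14.4, 13.9 and 6.69 TPM in elav>Chd1 and 209.8, 189.8 and 221 TPM in Chd1-deficient libraries. EbpIII was the highest of the list, at 191, 188 and 201 TPM in wild type, 418, 444 and 448 TPM in elav>Chd1 and 784, 750.3 and 754 TPM in Chd1-deficient libraries. Although named for the ejaculatory bulb like Ebp and EbpII, EbpIII belongs to the chemosensory protein family, and its order of groups was that of neuron markers. EbpIII was higher in elav>Chd1 than in wild type by 1.17 (limma adjusted p = 3.7e-09, SE 0.04), where Ebp fell by 1.55 (limma adjusted p = 3.5e-08, SE 0.07). The cuticle genes left out by the rule also took this order. Acp1 stood at 37, 36.9 and 36.4 TPM in wild type, 115, 109 and 103 TPM in elav>Chd1 and 713, 711 and 699 TPM in Chd1-deficient libraries. Acp65Aa stood at 4.77, 7.99 and 10.6 TPM in wild type, 165, 149 and 157 TPM in elav>Chd1 and 406, 386 and 397 TPM in Chd1-deficient libraries. The 4 regulators of the accessory gland were low, with a sum of 1.57 to 1.94 TPM in wild type, 3.24 to 3.74 TPM in elav>Chd1 and 3.4 to 3.58 TPM in Chd1-deficient libraries. dve and Abd-B passed the filter and were both called higher in Chd1-deficient and in elav>Chd1 than in wild type. Over all tested genes 42.9% and 30.6% were called higher in these comparisons. dve stood at 0.954, 0.937 and 0.813 TPM in wild type, 1.86, 2.03 and 1.76 TPM in elav>Chd1 and 2.16, 1.96 and 1.95 TPM in Chd1-deficient libraries. Abd-B, the Hox gene of the posterior abdomen, stood at 0.648, 0.88 and 0.604 TPM in wild type, 1.53, 1.57 and 1.37 TPM in elav>Chd1 and 0.964, 0.979 and 0.947 TPM in Chd1-deficient libraries.

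The 49 genes also share features of position and size that the naming rule did not use. In the Ensembl annotation 23 lie on chromosome arm 2L, 10 on 2R, 9 on 3L and 7 on 3R, and none lies on the X chromosome, which holds 15.7% of the 13709 protein-coding genes matched. Arm 2L holds 18.6% of protein-coding genes and 46.9% of the 49. Several sit side by side. Sfp24Ba, Sfp24Bd, Sfp24Bb and Sfp24Bc lie on 2L within 3667977 to 3670581 on the minus strand, inside the span of Drgx on the other strand. Within this cluster Sfp24Bb reached 20.5, 17.6 and 18.8 TPM in Chd1-deficient libraries, while Sfp24Bd stood at 0.421, 1.18 and 0 TPM. Sfp33A4, Sfp33A2 and Sfp33A3 lie within 11837243 to 11840329 on 2L inside Pde1c, which is on the other strand. Here Sfp33A3 was the highest, at 5.96, 6.9 and 5.93 TPM in Chd1-deficient, against 0.436, 1.23 and 0.886 TPM for Sfp33A2. The transcripts are short, with a median length of 456 bases for the longest transcript of each gene (range 168 to 2923), against 1711 bases over the 13709 protein-coding genes. They have 1 to 4 exons. Short transcripts yield few reads per TPM, and Sfp96F and Acp98AB, with 168 and 175 bases, are the shortest of the set.

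The authors' deposited table of Chd1-deficient against wild type lists 40 of the 49 genes, all higher, as are 5069 of all 5307 genes it lists. The authors' deposited table of Chd1-deficient against elav>Chd1 lists 46, all higher, as are 3276 of all 3546 genes it lists. The direction of the listed seminal fluid genes is thus near that of each table as a whole. Per the file headers both tables hold only changes of at least 1 on the log2 scale, so a gene of smaller change could not appear, and they rest on the same libraries as the fit above. In the authors' deposited table the log2 fold changes of these genes ran from 1.65 to 3.72 against wild type, with a median of 2.45, and from 1.90 to 6.84 against elav>Chd1, with a median of 4.33. The authors' deposited table gives 2.36 (SE 0.37) for SP and 3.03 (SE 0.22) for Dup99B against wild type. It also gives the mean normalized read count behind each gene, which differed widely within the set. The authors' deposited table lists 1875 for Ebp, 1010.2 for Acp36DE, 51.8 for SP and 8.43 for Acp98AB. Of the 46 genes in the authors' deposited table against elav>Chd1, 10 had a mean under 10 reads, and values of such genes rest on few reads in each library.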

How the data were processed

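RNA of 9 libraries, 3 per genotype, was matched to genotypes by the sample labels. The deposited TPM, 1 value per gene symbol and library, were made by the authors; Salmon and DESeq2 stand in the submitters' processing notes, with neither version nor role, and with the genome build not given in the sources used here. Library totals were 999685 to 999850 TPM. The deposited tables also hold, per the file headers, log2 fold changes with standard errors, a test score and, for each gene, raw and adjusted p-values, and a mean normalized count (a signal averaged over libraries, made by the authors); fold changes, errors and mean counts of the genes described were copied, and the score and p-value columns were not printed. No count per library was used, so no interval or detection limit that needs depth is given.

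On the log2(TPM + 0.5) scale, limma-trend (limma 3.58.1, R 4.3.3) fitted all 9 libraries with 1 mean per genotype. P-values were adjusted by Benjamini-Hochberg across the 11094 genes that reached 1 TPM in 3 or more libraries. Fold changes on this scale understate the change of low genes. The fit was tested on simulated data before use. Genes below the filter were compared with exact permutation tests (scipy 1.17.1). Every gene of the set that passed the filter is named with its value in each library, and from the lists of pathway, other tract and regulator genes the 2 with the highest mean. Marker lists are given as sums. Other genes in the text were picked with their values known. Members and lists were chosen with earlier results of these data known. Symbols were matched to the Ensembl 115 annotation of BDGP6.54, directly or through synonyms (16768 of 16837, and all 49 of the set), and coordinates only place the genes. No sequence is printed, since no sequence table was used here. Alternatives were another filter or none, pseudocounts of 0.1 and 1, median-ratio scaling, only the groups compared, the replicate number as a block, and each library left out.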

Additional observations from a re-analysis of the deposited data

How the results depend on the processing

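The number of genes of the set called in each comparison stayed within 1.5 times its reported value under every alternative run. Without 1 library at a time it ran from 27 to 36 for Chd1-deficient against wild type, from 28 to 39 for Chd1-deficient against elav>Chd1 and from 26 to 32 for elav>Chd1 against wild type. The lowest counts came with a Chd1-deficient library left out, when only 30 of the genes passed the filter. Under the other alternatives the ranges were 29 to 40, 32 to 44 and 22 to 30. The 22 came with only the 2 groups compared, where 25 of the genes passed. Over all genes the calls numbered 8559 to 9982, 5715 to 8292 and 8108 to 8770 without 1 library. Of 1756 values of single genes under an alternative, 1719 kept direction and call, 22 lost a call, 8 gained one and 7 changed sign. These 37 concern Acp98AB, Sfp24Ba, Sfp26Ac, Sfp36F, Sfp53D, Sfp77F, Sfp78E and Sfp96F. The signs that changed were those of Sfp78E (-0.24 without wild type replicate 3) and Sfp96F (-0.07 without Chd1-deficient replicate 1) for Chd1-deficient against wild type. For elav>Chd1 against wild type they were those of Sfp77F (0.017 without wild type replicate 1 and 0.0034 without elav>Chd1 replicate 3) and Acp98AB (0.16 without wild type replicate 3, 0.20 without elav>Chd1 replicate 1 and 0.20 without replicate 3). With 1 library left out these 4 differences ran from -0.24 to 0.27 (Sfp78E), -0.070 to 0.903 (Sfp96F), -0.59 to 0.017 (Sfp77F) and -1.61 to 0.20 (Acp98AB), and none was called with all libraries. Without a filter Acp98AB lost its calls for both comparisons with the Chd1-deficient libraries (limma adjusted p = 0.063 and 0.051). Sfp78E and Sfp96F then lost theirs against elav>Chd1 (0.11 and 0.10), and Sfp26Ac its call between elav>Chd1 and wild type (0.062). Sfp36F was called lower in elav>Chd1 than in wild type with only these groups fitted (limma adjusted p = 0.038) or without Chd1-deficient replicate 3 (0.032). The cause was not tested.

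The genotypes share replicate numbers in the labels, but nothing says that a number marks a shared batch. Deviations of same-numbered libraries from their group means correlated by -0.16 to 0.11, and a library correlated best with its own number in 4 of 9 cases. These include all 3 pairs of Chd1-deficient and elav>Chd1 libraries (0.11, 0.037 and 0.083), a hint from the data and not from the design. Not every pair's correlation passed 0.1, and the libraries were not treated as paired. With the replicate block 37 genes of the set were called for Chd1-deficient against wild type, 38 for Chd1-deficient against elav>Chd1 and 30 for elav>Chd1 against wild type. Sfp36F gained its call against wild type (limma adjusted p = 0.047) and Sfp78E lost its call against elav>Chd1 (0.059). Genes with few reads, such as Acp98AB with a mean of 8.43 in the authors' deposited table, limit what a single library can show.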

Other observations

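Within the wider list of male tract genes, Obp56e and Est-6 took the order of neuron markers, wild type lowest and Chd1-deficient highest. The genes of this paragraph are named after their values were seen. Obp56e, an odorant-binding protein gene, stood at 4.85, 4.25 and 5.3 TPM in wild type, 19.8, 16.4 and 22.6 TPM in elav>Chd1 and 153, 142 and 138 TPM in Chd1-deficient libraries. Obp56e was called higher in elav>Chd1 than in wild type, by 1.92 (limma adjusted p = 2.3e-07, SE 0.11), as was Est-6, a carboxylesterase of the ejaculatory duct and other tissues, by 0.44 (limma adjusted p = 0.00017, SE 0.07). The serpin genes Spn28F, Spn38F, Spn77Bb and Spn77Bc kept the order of the seminal fluid genes. Spn38F stood at 1.99, 2.06 and 1.59 TPM in wild type, 0.849, 0.514 and 0.479 TPM in elav>Chd1 and 8.27, 7.01 and 7.94 TPM in Chd1-deficient libraries. Anp, the antibacterial peptide andropin of the ejaculatory duct, stood at 5.85, 2.81 and 6.6 TPM in wild type, 1.23, 0.803 and 1.22 TPM in elav>Chd1 and 48.7, 46.6 and 47.1 TPM in Chd1-deficient libraries. Against wild type Anp rose in Chd1-deficient by 3.18 (limma adjusted p = 4.4e-07, SE 0.24) and fell in elav>Chd1 by 1.76 (limma adjusted p = 8.3e-05, SE 0.24).

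The female spermatheca, where sperm are stored, was followed by 2 secreted protease genes. Send1 stood at 7.75, 6.53 and 6.06 TPM in wild type, 34.9, 35 and 33.8 TPM in elav>Chd1 and 70.2, 68.8 and 63.6 TPM in Chd1-deficient libraries. Send2 stood at 3.12, 2.98 and 3.11 TPM in wild type, 1.5, 1.56 and 1.34 TPM in elav>Chd1 and 1.92, 2.13 and 1.64 TPM in Chd1-deficient libraries. The 2 genes took different orders. Send1 was lowest in wild type and highest in Chd1-deficient, while Send2 was highest in wild type and was called lower in Chd1-deficient, at -0.58 (limma adjusted p = 0.00028, SE 0.10).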
